A study of Homo sapiens with 20 samples.

Results

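Homologous recombination and Fanconi repair were described through 38 genes chosen by name, which code for damage kinases, end resection proteins, BRCA mediators, paralog complexes of strand exchange, Fanconi complex subunits and resolution enzymes. Each gene was read from the probe set that carries its symbol, and 33 of the 38 had one among the 17687 genes tested. BRCA2, RAD54B, RBBP8, FANCA and FANCD2 had no probe set with their symbol and are not analysed here. The arrays came from Rh30 and Rh41, established cell lines of alveolar rhabdomyosarcoma with the PAX3-FOXO1 fusion. Rh30 and Rh41 cells were exposed to QC6352, a small-molecule inhibitor of the KDM4 histone demethylases, at 200 nM for 48 h, or to the solvent DMSO (3 arrays per group). Rh30 cells also received a KDM4B short hairpin RNA or a control hairpin, and a KDM4C small interfering RNA or a control siRNA, for 72 h (2 arrays per group). The labels call the arrays of a group biological replicates, and all groups are cultured cell lines, so each line is 1 tumour model.

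Homologous recombination repairs a broken chromosome by copying the sister chromatid. The MRE11-RAD50-NBN complex and EXO1 trim the ends, ATM and ATR signal the damage to CHEK2 and CHEK1, BRCA1 and PALB2 act in preparing strand exchange, and MUS81-EME1 and SLX4 cut the joined molecules. The Fanconi core complex, to which FANCC, FANCE, FANCF, FANCG, FANCL and FANCM belong, marks the FANCI-FANCD2 pair with ubiquitin at interstrand crosslinks. KDM4 enzymes are demethylases that act on histone H3 lysines.

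Levels are given as the deposited log2 signal of the probe set, and differences are on the same log2 scale. The targeted genes were read as a check of the labels. KDM4B gave 6.01 and 6.15 in the KDM4B hairpin arrays and 6.74 and 7.30 in the control hairpin arrays, a change of -0.94 ± 0.23 (SE, limma, adjusted p = 0.012). KDM4C gave 6.25 and 6.32 in the KDM4C siRNA arrays and 6.48 and 6.54 in the control siRNA arrays, a change of -0.23 ± 0.19 that missed the threshold (limma, adjusted p = 0.651). The labels of 10 Rh30 arrays conflict: the title and the sample name put the QC6352, DMSO and siRNA arrays of Rh30 in different groups. The groups here follow the titles, with 1 exception: KDM4C siRNA replicate 2 is titled as a KDM4C shRNA and was placed by its source name and treatment, which give the siRNA. Array medians over all probe sets were 6.72 to 6.75 in the 4 arrays of the siRNA groups and 6.95 to 6.99 in the 6 arrays titled QC6352 or DMSO of Rh30, and by sample name the QC6352 group of Rh30 joins arrays of both ranges. With groups by sample name, 1 member (CHEK2, higher) passed for QC6352 in Rh30, where 0.503% of all genes did, and 6 passed in Rh41, where 8.69% did. By sample name 3 members passed for the difference between the lines and 5 for drug minus hairpin, against 4.31% and 3.47% of all genes. Of 8 muscle lineage markers, MYF6 lay near the background control probe sets, whose array medians were 3.64 to 4.01, and the other 7 lay well above them in every group. Markers of other cell types were mixed. EPCAM, PTPRC, KDR and LUM, which mark epithelial, blood, endothelial and fibroblast cells, lay near background in every group (group means 3.22 to 4.29), while other genes of the same lists lay well above it, such as KRT8 (7.77 to 8.57), CD68 (6.32 to 10.33), VWF (6.28 to 7.07) and COL1A2 (8.07 to 9.18).

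The 6 members with the largest changes under QC6352 are shown by the 300 bases around an annotated transcription start, since their start regions are where a shared sequence feature would be looked for. The sequences are RefSeq's on GRCh38.p14, 250 bases before to 50 bases after the start, written 5′ to 3′ on the gene's own strand. Capitals mark the 3 motifs searched on both strands: TTTNNCGC (E2F type), TTTGAA (CHR type) and CCAAT (NF-Y type). The printed window is the first entry of the table. RAD51B, FANCC and RAD52 have 2 entries each, and the printed starts of RAD51B and RAD52 lie 3762 and 41428 bases inside the RefSeq gene.
RAD51B (chr14:67823291-67823590, plus strand): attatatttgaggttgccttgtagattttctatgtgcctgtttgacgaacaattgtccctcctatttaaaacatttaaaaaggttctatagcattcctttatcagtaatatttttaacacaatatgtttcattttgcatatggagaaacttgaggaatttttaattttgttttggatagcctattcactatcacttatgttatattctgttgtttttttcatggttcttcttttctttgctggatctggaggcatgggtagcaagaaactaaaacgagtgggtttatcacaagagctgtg
FANCC (chr9:95317660-95317959, minus strand): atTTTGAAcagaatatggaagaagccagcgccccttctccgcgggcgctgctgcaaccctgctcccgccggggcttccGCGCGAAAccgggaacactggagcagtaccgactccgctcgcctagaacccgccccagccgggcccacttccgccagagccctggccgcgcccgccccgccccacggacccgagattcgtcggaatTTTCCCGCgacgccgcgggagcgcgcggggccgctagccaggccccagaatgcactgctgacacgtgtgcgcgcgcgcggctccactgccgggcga
RAD50 (chr5:132556727-132557026, plus strand): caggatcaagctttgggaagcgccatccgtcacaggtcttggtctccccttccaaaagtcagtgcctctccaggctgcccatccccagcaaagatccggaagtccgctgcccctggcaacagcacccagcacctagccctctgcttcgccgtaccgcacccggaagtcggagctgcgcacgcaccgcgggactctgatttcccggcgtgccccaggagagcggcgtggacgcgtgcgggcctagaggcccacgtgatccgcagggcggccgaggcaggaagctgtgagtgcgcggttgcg
ATR (chr3:142578684-142578983, minus strand): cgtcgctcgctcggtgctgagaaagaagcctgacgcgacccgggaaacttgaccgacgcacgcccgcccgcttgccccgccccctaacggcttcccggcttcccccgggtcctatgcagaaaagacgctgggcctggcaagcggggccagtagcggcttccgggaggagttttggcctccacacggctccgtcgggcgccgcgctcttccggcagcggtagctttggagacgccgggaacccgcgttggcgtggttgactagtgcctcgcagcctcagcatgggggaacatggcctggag
RAD52 (chr12:949645-949944, minus strand): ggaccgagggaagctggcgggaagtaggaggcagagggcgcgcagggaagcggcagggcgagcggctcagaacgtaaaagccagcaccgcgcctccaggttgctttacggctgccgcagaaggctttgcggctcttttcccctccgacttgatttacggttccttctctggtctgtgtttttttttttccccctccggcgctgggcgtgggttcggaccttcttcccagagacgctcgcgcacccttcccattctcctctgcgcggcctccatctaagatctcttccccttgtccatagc
FANCF (chr11:22625774-22626073, minus strand): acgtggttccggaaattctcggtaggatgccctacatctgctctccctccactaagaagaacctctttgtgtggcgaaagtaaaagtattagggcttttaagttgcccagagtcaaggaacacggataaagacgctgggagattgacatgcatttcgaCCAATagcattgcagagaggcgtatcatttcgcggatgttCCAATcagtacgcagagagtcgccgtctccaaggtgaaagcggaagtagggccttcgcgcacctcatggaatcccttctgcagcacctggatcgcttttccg

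FANCC, a core complex subunit, held 2 E2F-type matches and 1 CHR-type match, and FANCF, its partner in that complex, held 2 CCAAT boxes. The windows of RAD51B, RAD50, ATR and RAD52 held none of the 3 motifs. Of the 33 measured members, 30 had an entry. The E2F type occurred in 4 of the 30 (EXO1, XRCC2, FANCC and CHEK2, 13.3%) and in 6.90% of 27303 promoters. CCAAT occurred in 13 of the 30 (43.3%) and in 35.7% of all promoters, and TTTGAA in 4 (13.3%) and in 15.4%. These matches describe the letters of the windows and no binding was measured.

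The drug arrays compare KDM4 inhibition with solvent in each line. QC6352 split the group in Rh30: 10 members rose, 10 fell and 13 did not pass the test (limma, adjusted p under 0.05 over all genes). Over all 17687 genes, 19.9% rose and 16.5% fell. The strongest declines were in the strand exchange mediator RAD51B, the Fanconi core subunit FANCC, the resection subunit RAD50, the kinase ATR and the strand annealing protein RAD52. In Rh41, 6 members rose and 8 fell, against 10.9% and 8.80% of all genes. The median change of the 33 members was -0.06 in Rh30 and 0.01 in Rh41, beside 0.05 and 0.02 over all genes. In Rh30 the arrays of the groups did not overlap for 11 members that were higher and 12 that were lower with QC6352, where 25.0% and 19.5% of all genes did so. Cell type markers moved too. Of the 8 muscle markers, 3 fell and 1 rose with QC6352 in Rh30, led by MYOG (-2.63) and MYOD1 (-1.37), and their array means were 9.42 to 9.43 with QC6352 and 10.01 to 10.06 with DMSO. Of 6 epithelial markers 2 rose (array means 6.31 to 6.50 with QC6352, 5.81 to 6.02 with DMSO), and of 5 blood markers 2 rose (array means 5.91 to 6.28 with QC6352, 5.25 to 5.33 with DMSO); 1 of 5 endothelial markers fell and 1 of 6 fibroblast markers rose. The blood markers that rose were CD68, a lysosomal protein of macrophages (3.62), and CD3E, a T cell receptor subunit (0.50). CD3E was dim, averaging 5.09 with QC6352 and 4.58 with DMSO, and PTPRC lay near background in both groups. In Rh41 CD68 (1.31), KRT18 (0.45) and PAX3 (0.36) rose and FAP (-1.11) and CDH15 (-0.48) fell with QC6352. There the blood marker means were 5.67 to 5.96 with QC6352 and 5.46 to 5.54 with DMSO, and the fibroblast marker means 6.48 to 6.53 and 6.63 to 6.71 in the same order. The part of these markers in the repair gene results was not tested. In bulk RNA, fewer cells of a type and less RNA per cell cannot be told apart.

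**Figure D1:**
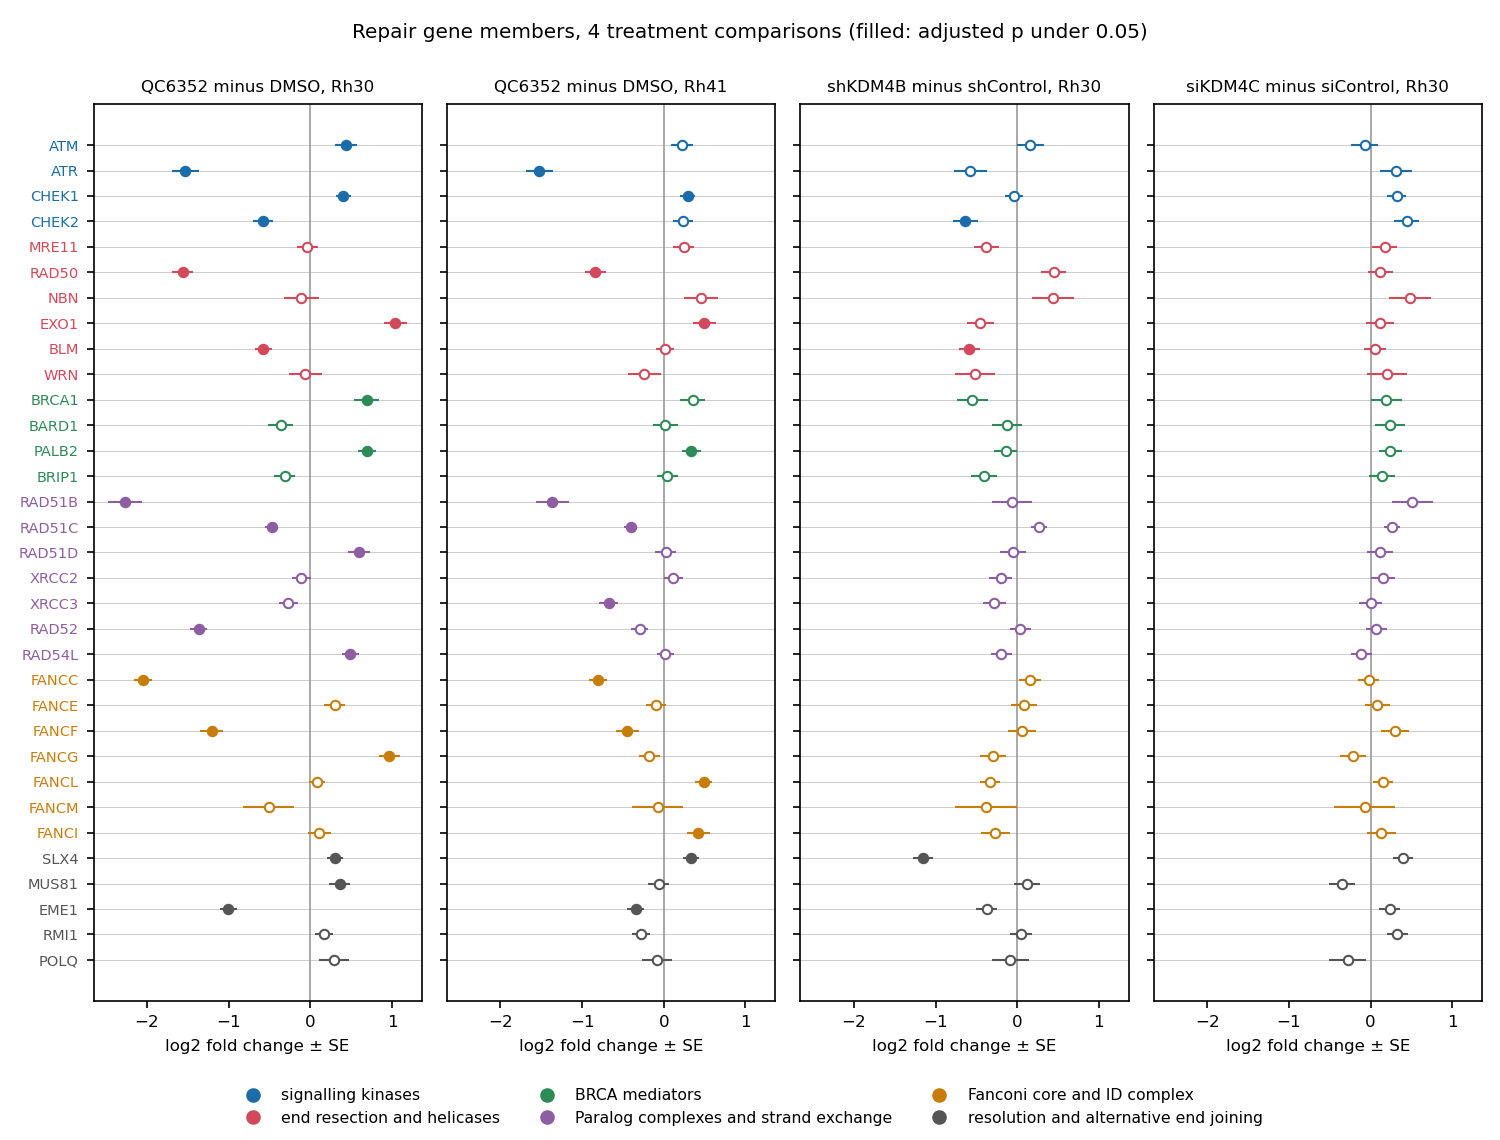
Change of the 33 measured repair genes in the 4 treatment comparisons, ordered and coloured by role; the horizontal axis is the log2 fold change with its SE, and filled points passed an adjusted p of 0.05. RAD51B and FANCC lie farthest to the left with QC6352 in Rh30, SLX4 lies apart with the KDM4B hairpin, and no point is filled for the KDM4C siRNA.

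Among the signalling kinases, ATR fell in both lines. ATR, which responds to stalled replication forks, gave 4.27, 4.04 and 4.31 in the QC6352 arrays of Rh30 and 5.69, 5.93 and 5.59 in its DMSO arrays. In Rh41 it gave 4.65, 4.94 and 4.57 with QC6352 and 6.29, 6.57 and 5.87 with DMSO. All QC6352 arrays lay below all DMSO arrays of their line, and the QC6352 arrays of Rh30 lay close to background. Those of Rh41 were also near their background medians of 3.87 to 3.89. This bounds the decline that the arrays can show in both lines. The change was -1.53 ± 0.16 in Rh30 (adjusted p = 4.1e-07) and -1.52 ± 0.16 in Rh41 (adjusted p = 1.8e-06). CHEK1, the kinase downstream of ATR, rose by 0.40 ± 0.09 in Rh30 (adjusted p = 0.0014) and by 0.29 ± 0.09 in Rh41 (adjusted p = 0.028). ATM, which responds to double-strand breaks, rose in Rh30 by 0.44 ± 0.14 (adjusted p = 0.015), and its target CHEK2 fell there by 0.58 ± 0.13 (adjusted p = 0.0011). Neither passed in Rh41, where ATM changed by 0.22 and CHEK2 by 0.23.

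The subunits of the MRE11-RAD50-NBN complex did not move together. RAD50, the coiled-coil subunit that tethers ends, gave 7.21, 6.92 and 7.13 with QC6352 and 8.66, 8.67 and 8.62 with DMSO in Rh30. In Rh41 it gave 9.19, 9.57 and 9.35 with QC6352 and 10.22, 10.27 and 10.13 with DMSO. No array of the QC6352 groups reached those of its DMSO group, and the QC6352 level of Rh41 stayed above the DMSO level of Rh30. RAD50 changed by -1.56 ± 0.13 in Rh30 (adjusted p = 1.3e-08) and by -0.84 ± 0.13 in Rh41 (adjusted p = 0.00011). The nuclease MRE11 changed by -0.04 and 0.24 and the adaptor NBN by -0.11 and 0.46 in Rh30 and Rh41, and neither passed the test. EXO1, the exonuclease of long-range resection, rose in both lines: it gave 10.16, 9.84 and 9.996 with QC6352 and 9.17, 8.84 and 8.87 with DMSO in Rh30. In Rh41 EXO1 gave 10.03, 9.95 and 9.95 with QC6352 and 9.56, 9.46 and 9.42 with DMSO. The QC6352 arrays were above every DMSO array of the same line, with changes of 1.04 ± 0.14 (adjusted p = 6.7e-06) and 0.50 ± 0.14 (adjusted p = 0.016). The helicase BLM fell in Rh30 by 0.57 ± 0.11 (adjusted p = 0.00027) and did not pass in Rh41, where its change was 0.01. WRN, the related helicase, passed in neither line (-0.06 and -0.24).

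BRCA1 and PALB2, which together bring BRCA2 to resected ends, rose in Rh30 by 0.69 ± 0.15 (adjusted p = 0.0014) and 0.70 ± 0.11 (adjusted p = 6.6e-05). PALB2 also rose in Rh41, by 0.34 ± 0.11 (adjusted p = 0.044), whereas BRCA1 changed by 0.35 and missed the threshold. BARD1, the obligate partner of BRCA1, changed by -0.36 in Rh30 and 0.02 in Rh41. The helicase BRIP1 changed by -0.32 and 0.04. Neither BARD1 nor BRIP1 passed in a drug comparison.

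The strand exchange paralogs form 2 complexes, one of RAD51B, RAD51C, RAD51D and XRCC2 and the other of RAD51C and XRCC3, and their members diverged. RAD51B gave 4.56, 4.58 and 4.99 with QC6352 and 6.70, 7.10 and 7.13 with DMSO in Rh30. In Rh41 it gave 6.02, 6.13 and 6.29 with QC6352 and 7.83, 7.17 and 7.54 with DMSO. The groups did not overlap in either line, and the QC6352 arrays of Rh30 lay near the background medians, which bounds the fall that can be read there. The changes were -2.27 ± 0.20 (adjusted p = 4.6e-08) and -1.36 ± 0.20 (adjusted p = 8.3e-05). RAD51C fell by 0.47 ± 0.08 in Rh30 (adjusted p = 9.4e-05) and by 0.41 ± 0.08 in Rh41 (adjusted p = 0.0011). RAD51D, in contrast, rose in Rh30 by 0.60 ± 0.13 (adjusted p = 0.0011) and changed by 0.02 in Rh41 without passing, and XRCC2 passed in neither line. XRCC3 gave 7.85, 8.14 and 8.28 with QC6352 and 8.82, 8.72 and 8.74 with DMSO in Rh41, with no overlap. This fall of 0.67 ± 0.12 (adjusted p = 0.00035) had no called counterpart in Rh30, where XRCC3 changed by -0.27, and the difference between the lines did not pass.

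RAD52, which anneals single strands, responded mainly in Rh30. It gave 7.02, 7.04 and 7.13 with QC6352 and 8.39, 8.38 and 8.52 with DMSO there, so the groups were more than a unit apart. The change was -1.37 ± 0.11 (adjusted p = 5.9e-09). In Rh41 RAD52 gave 8.43, 8.45 and 8.35 with QC6352 and 8.61, 8.73 and 8.77 with DMSO, and the change of -0.29 missed the threshold. The motor protein RAD54L rose in Rh30 by 0.49 ± 0.11 (adjusted p = 0.0010) and changed by 0.02 in Rh41.

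**Figure D2:**
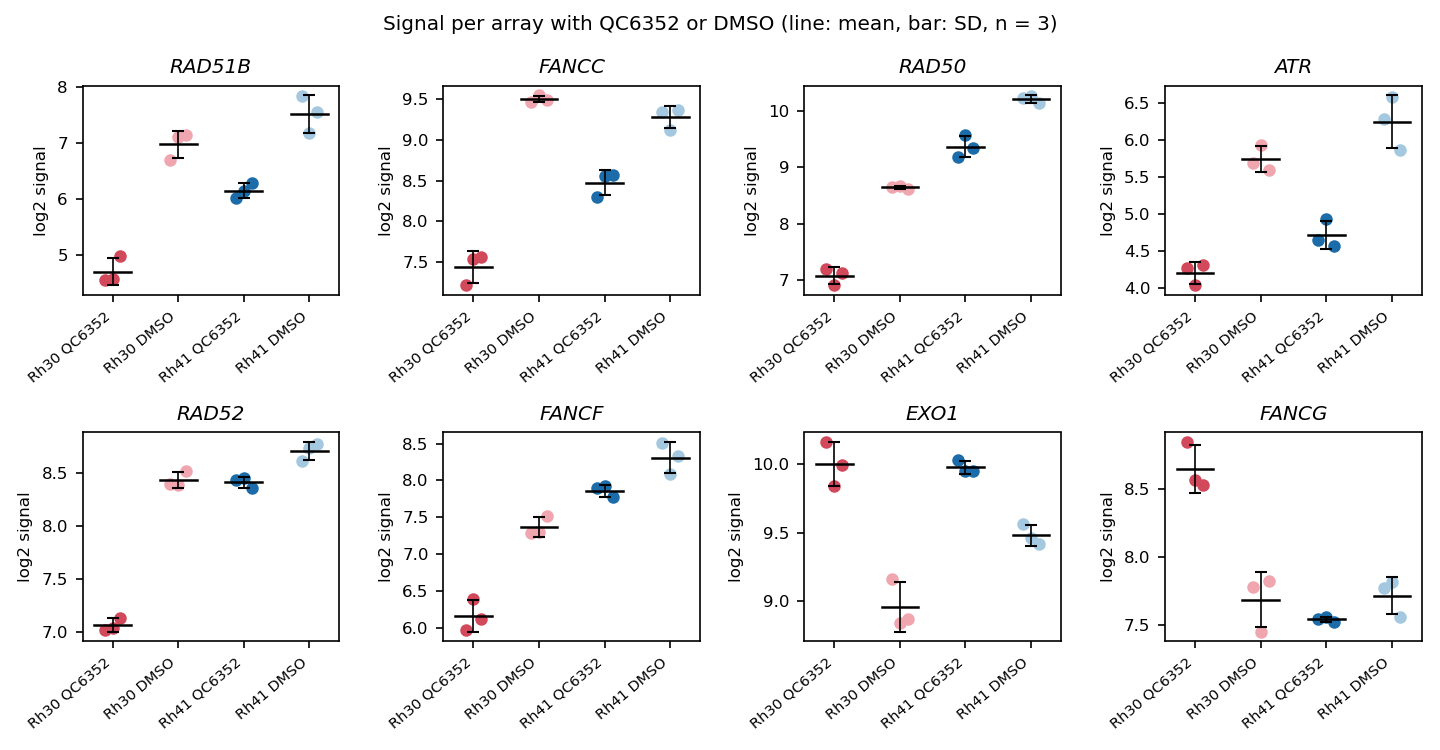
Log2 signal of 8 repair genes in each QC6352 and DMSO array of Rh30 and Rh41; points are arrays, lines are means and bars are SDs (n = 3). RAD51B, FANCC, RAD50, ATR and FANCF lie lower with QC6352 in both lines, EXO1 lies higher in both, and FANCG is higher in Rh30 at 8.53 to 8.85 with QC6352, against 7.45 to 7.83 with DMSO.

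Subunits of the Fanconi core complex also went in different directions. FANCC gave 7.22, 7.55 and 7.57 with QC6352 and 9.46, 9.54 and 9.48 with DMSO in Rh30. In Rh41 it gave 8.30, 8.55 and 8.57 with QC6352 and 9.34, 9.12 and 9.37 with DMSO. The gap was wider in Rh30, with changes of -2.05 ± 0.11 (adjusted p = 3.2e-11) and -0.81 ± 0.11 (adjusted p = 2.5e-05). FANCF, the flexible adaptor of the core, gave 5.97, 6.40 and 6.12 with QC6352 and 7.28, 7.30 and 7.52 with DMSO in Rh30. In Rh41 FANCF gave 7.89, 7.93 and 7.77 with QC6352 and 8.51, 8.09 and 8.33 with DMSO, so all QC6352 arrays were below the DMSO arrays, though closely in Rh41. It fell by 1.21 ± 0.14 in Rh30 (adjusted p = 1.2e-06) and by 0.45 ± 0.14 in Rh41 (adjusted p = 0.030). FANCG rose in Rh30 by 0.96 ± 0.13 (adjusted p = 6.5e-06) and changed by -0.18 in Rh41 without passing. FANCL, the ubiquitin ligase of the core, and FANCI, its substrate, rose in Rh41 by 0.49 ± 0.10 (adjusted p = 0.0017) and 0.42 ± 0.14 (adjusted p = 0.044). In Rh30 these 2 genes changed by 0.08 and 0.11 without passing. FANCE and FANCM passed in neither line.

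The partners of the MUS81-EME1 nuclease parted in Rh30. EME1, the non-catalytic subunit, fell by 1.00 ± 0.10 (adjusted p = 2.7e-07), while the catalytic subunit MUS81 rose by 0.36 ± 0.13 (adjusted p = 0.035). The MUS81 call held in 9 of 14 other settings with groups by title. By limma it was lost without DMSO replicate 1 (0.24, adjusted p = 0.190), QC6352 replicate 2 (adjusted p = 0.122) or QC6352 replicate 3 (adjusted p = 0.066). In Rh41 EME1 fell by 0.34 ± 0.10 (adjusted p = 0.024) and MUS81 changed by -0.06. SLX4, the scaffold that holds structure-specific nucleases, rose by 0.30 ± 0.10 in Rh30 (adjusted p = 0.022) and by 0.33 ± 0.10 in Rh41 (adjusted p = 0.022). RMI1, of the dissolution complex of BLM, and POLQ, the polymerase of alternative end joining, did not pass in either line.

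Of the 20 members called in Rh30 and the 14 called in Rh41, 11 were called in both, all in the same direction. These 11 are 55% of the Rh30 list and 78.6% of the Rh41 list: EXO1, PALB2, CHEK1 and SLX4 were higher, and RAD51B, RAD51C, RAD50, ATR, FANCC, FANCF and EME1 were lower. Over all genes, 2082 were called in the same direction in both lines, 32.4% of the Rh30 calls and 59.8% of the Rh41 calls, and 190 in opposite directions. Whether the repair genes differ from all genes in this was not tested. The Rh41 count rests on single arrays more than that of Rh30: it was 8 without QC6352 replicate 3 and 9 without DMSO replicate 2 or replicate 3, where 15.5%, 15.0% and 15.6% of all genes passed. Without the 10 Rh30 arrays of conflicting labels it was 18 (8 higher, 10 lower), where 23.5% of all genes passed.

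**Figure D3:**
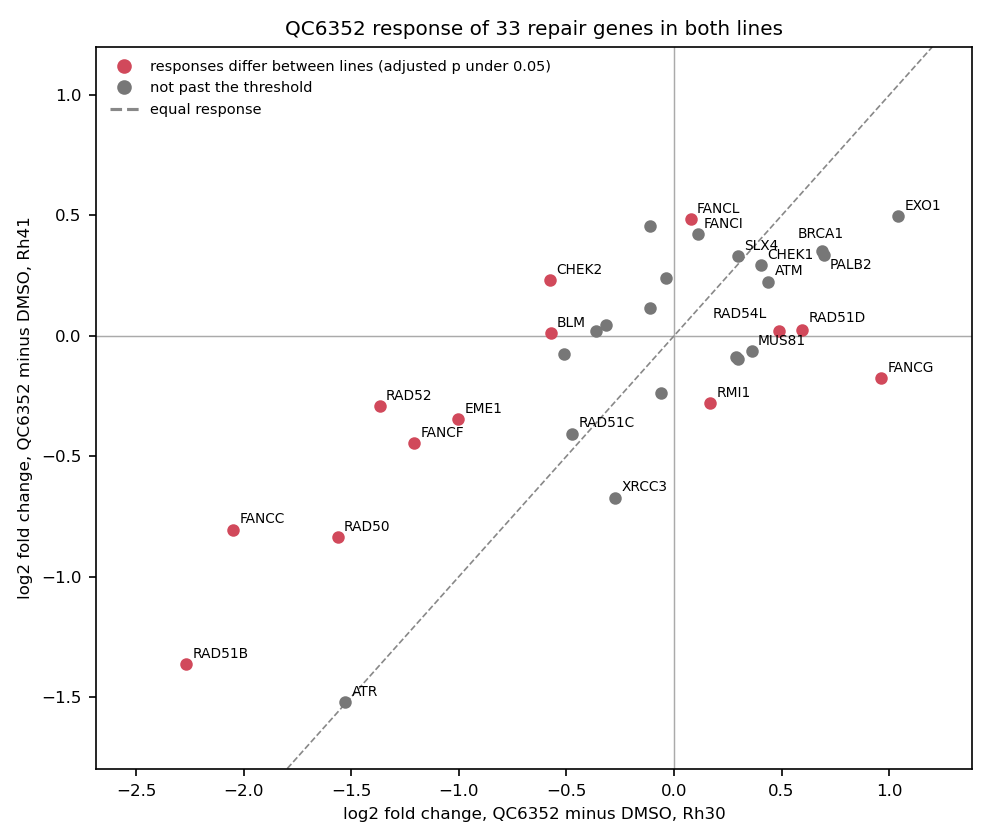
Log2 fold change with QC6352 in Rh30 (horizontal) and Rh41 (vertical) for 33 repair genes; red points are the 13 whose responses differed between the lines (adjusted p under 0.05) and the dashed line marks equal responses. ATR lies at -1.53 and -1.52, with both values bounded by background, while FANCC, RAD51B and RAD52 lie above the dashed line, with the larger decline in Rh30.

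The difference between the lines was tested directly, as the Rh41 response minus the Rh30 response. It was positive for 9 members and negative for 4, against 10.5% and 9.45% of all genes. The 6 largest differences were in FANCC (1.24 ± 0.15, adjusted p = 1.1e-05), FANCG (-1.14 ± 0.18, adjusted p = 0.00017), RAD52 (1.07 ± 0.15, adjusted p = 4.2e-05), RAD51B (0.90 ± 0.29, adjusted p = 0.033), CHEK2 (0.81 ± 0.18, adjusted p = 0.0028) and FANCF (0.76 ± 0.20, adjusted p = 0.0099). For FANCC, RAD52, RAD51B and FANCF this meant a deeper decline in Rh30, and FANCG rose in Rh30 and was not called in Rh41. The RAD51B difference passed in 12 of 20 other settings with groups by title. CHEK2 was lower with QC6352 in Rh30 and 0.23 higher, not called, in Rh41. ATR did not pass, and since its QC6352 arrays lay near background in both lines, equal responses are not shown.

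The KDM4B hairpin targets a single enzyme of the family. It lowered 3 members in Rh30 and raised none, where 5.26% of all genes rose and 6.31% fell. At an unadjusted p under 0.05 by limma there were 13 members, and the share of all genes at that cut is not given here. The members lowered were SLX4, CHEK2 and BLM. SLX4 gave 6.98 and 7.18 in the KDM4B hairpin arrays and 8.26 and 8.20 in the control hairpin arrays. That is a change of -1.15 ± 0.12 (adjusted p = 4.6e-06), opposite in sign to its rise with QC6352. CHEK2 gave 6.39 and 6.30 with the KDM4B hairpin and 7.07 and 6.89 with the control hairpin, a change of -0.64 ± 0.15 (adjusted p = 0.0099). BLM gave 8.06 and 8.15 with the KDM4B hairpin and 8.78 and 8.60 with the control hairpin, a change of -0.59 ± 0.13 (adjusted p = 0.0059). The arrays of the 2 groups did not overlap for any of the 3 genes.

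The median change of the 33 members with the hairpin was -0.19, beside 0.03 over all genes. Arrays did not overlap for 18 members that were lower and 6 that were higher with the KDM4B hairpin, where 22.9% and 28.7% of all genes did so. Of the 8 muscle markers 3 fell with the hairpin (array means 9.66 to 9.68 with the KDM4B hairpin, 9.97 to 9.996 with the control). Of the 6 epithelial markers CLDN4 rose, averaging 9.14 with the KDM4B hairpin and 7.64 with the control (adjusted p = 7.9e-06 by limma; list means 6.08 to 6.18 with the KDM4B hairpin, 5.80 to 5.82 with the control). The part of these markers was not tested. The count of calls was 1 without control hairpin replicate 1, where 6.67% of all genes passed. When the 10 arrays of conflicting labels were left out of the fit, 7 members passed, all lower, where 14.3% of all genes passed: BRCA1 (-0.55), EXO1 (-0.45), BRIP1 (-0.41) and MRE11 (-0.38) joined the 3 above. With the dimmest 40% of probe sets left out 8 members passed, where 23.3% of all genes tested did. BRCA1 gave 7.42 and 7.15 with the KDM4B hairpin and 7.85 and 7.83 with the control hairpin. It stood lower with no overlap, the reverse of its higher level with QC6352.

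**Figure D4:**
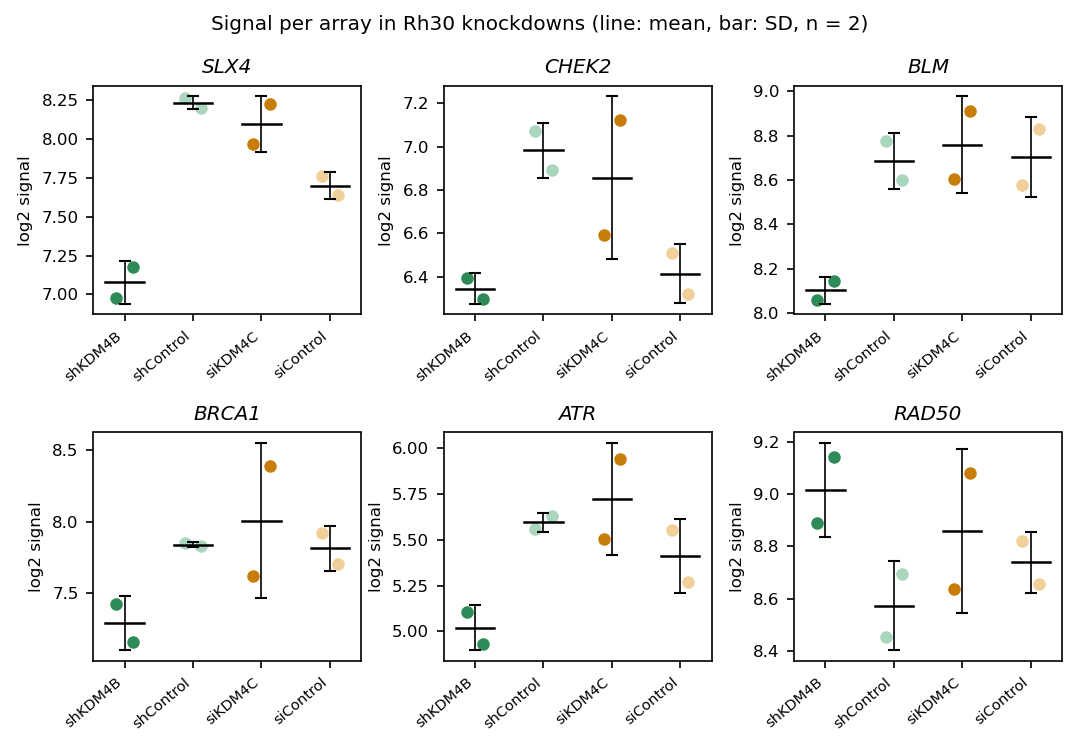
Log2 signal of 6 repair genes in each Rh30 knockdown array; points are arrays, lines are means and bars are SDs (n = 2). SLX4, CHEK2 and BLM lie lower with the KDM4B hairpin, and in all 6 panels KDM4C siRNA replicate 2 stands above replicate 1 and both controls.

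Neither direction of change passed for any member with the KDM4C siRNA, where 0.266% of all genes rose and 0.192% fell by limma. At an unadjusted p under 0.05 there were 6 members, again without a share of all genes at that cut. The members with the smallest p were SLX4, CHEK2 and CHEK1. SLX4 gave 7.97 and 8.22 with the KDM4C siRNA and 7.76 and 7.64 with the control siRNA, a change of 0.39 ± 0.12 (adjusted p = 0.132). CHEK2 gave 6.59 and 7.12 with the KDM4C siRNA and 6.51 and 6.32 with the control siRNA, a change of 0.44. CHEK1 gave 9.25 and 9.47 with the KDM4C siRNA and 9.12 and 8.97 with the control siRNA, a change of 0.32. In all 3 genes both KDM4C siRNA arrays were above both controls, and replicate 2, the array titled as an shRNA, stood farther off. The SD of the difference over all genes was 0.34 between the KDM4C siRNA arrays, 0.25 between replicate 1 of them and either control, and 0.23 between the controls. Without replicate 2 no member passed, and 0.0509% of all genes did. Without KDM4C siRNA replicate 1, which leaves the array titled as an shRNA alone, 7 members passed, where 10.1% of all genes did: CHEK2 (0.71), BRCA1 (0.58), RMI1 (0.56), SLX4 (0.52), PALB2 (0.49) and CHEK1 (0.43) were higher and MUS81 (-0.59) was lower. That fit assumes that the lone array varies as arrays of the other groups do.

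Drug and hairpin were set against each other in Rh30 as the QC6352 response minus the KDM4B hairpin response, which differ also in time. The difference was positive for 8 members and negative for 8, against 13.0% and 11.4% of all genes. FANCC (-2.21 ± 0.17, adjusted p = 3.4e-08), RAD51B (-2.20 ± 0.32, adjusted p = 4.5e-05), RAD50 (-2.01 ± 0.20, adjusted p = 7.6e-07) and RAD52 (-1.41 ± 0.17, adjusted p = 4.6e-06) were lower with the drug than with the hairpin, each relative to its control. EXO1 (1.49 ± 0.22, adjusted p = 4.9e-05) and SLX4 (1.45 ± 0.16, adjusted p = 1.5e-06) were higher. RAD50 illustrates the gap: it changed by 0.44 with the hairpin, which did not pass, and fell with the drug. BLM and CHEK2 were the only members called lower in both comparisons of the 20 called with QC6352 and the 3 called with the hairpin.

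The untreated lines differed as well. In DMSO, 23 members were higher in Rh41 than in Rh30 and 2 were lower, where 40.7% of all genes were higher and 16.8% lower. The split depends on scaling, because the array medians were 7.23 to 7.24 in Rh41 DMSO and 6.97 to 6.99 in Rh30 DMSO and the median gene differed by 0.19. With each array centred on its median, or with quantile normalization, 13 members were higher and 6 lower. Over all genes 26.0% were then higher and 31.0% lower with centring, and 26.3% and 28.1% with quantile normalization, so more genes were lower than higher. The calls of 15 members held under all 3 scalings, 13 higher and 2 lower. The share of all genes whose calls held under all 3 is not given here, so this split has no background to be set against.

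The 6 largest differences were in RAD50, NBN, ATM, CHEK2, RMI1 and FANCI. RAD50 was higher in Rh41 by 1.56 ± 0.13 (adjusted p = 5.3e-09), from the DMSO arrays given above. NBN gave 8.03, 7.97 and 8.04 in Rh41 and 6.66, 6.57 and 6.77 in Rh30 (1.35 ± 0.21, adjusted p = 2.3e-05). ATM gave 9.61, 9.70 and 9.84 in Rh41 and 8.45, 8.50 and 8.37 in Rh30 (1.27 ± 0.14, adjusted p = 1.8e-07). The 2 lines were well apart in each of these genes. CHEK2 gave 8.25, 8.06 and 8.15 in Rh41 and 6.96, 7.10 and 7.002 in Rh30 (1.13 ± 0.13, adjusted p = 3.1e-07). RMI1 gave 9.80, 9.90 and 9.79 in Rh41 and 8.79, 8.80 and 8.64 in Rh30 (1.08 ± 0.11, adjusted p = 7.8e-08). FANCI gave 9.50, 9.28 and 9.37 in Rh41 and 8.35, 8.18 and 8.43 in Rh30 (1.06 ± 0.14, adjusted p = 3.6e-06). None of these groups overlapped, and with centred arrays the 6 differences were 0.80 to 1.30, all called. XRCC3 and BRIP1 were lower in Rh41, with differences of -0.41 ± 0.12 (adjusted p = 0.0049) and -0.31 ± 0.13 (adjusted p = 0.047) as deposited. RAD51C and RAD52, called higher as deposited (0.27 each), changed sign to -0.01 under quantile normalization. Markers also differed between the lines in DMSO: 5 of 6 fibroblast markers were higher in Rh41, led by PDGFRA (2.91) and FAP (1.83). Of 8 muscle markers 2 were higher and 4 lower, and of 5 endothelial markers only PECAM1 was called, lower (-2.27). Of 6 epithelial markers KRT19 was higher (1.99), and CLDN4 (-1.52) and CDH1 (-0.62) were lower. Of 5 blood markers 2 were higher and 1 lower. Their part in the line difference was not tested.

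**Figure D5:**
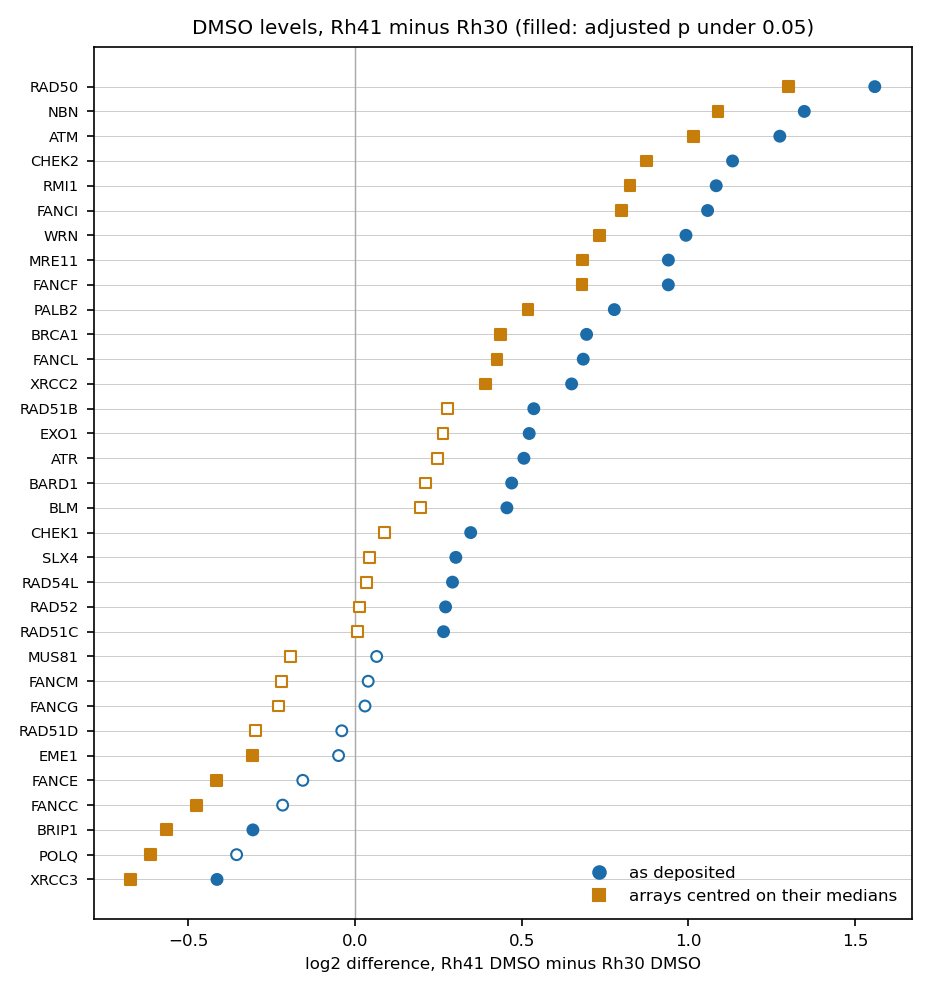
Rh41 minus Rh30 difference in DMSO for 33 repair genes, as deposited (circles) and with arrays centred on their medians (squares); filled symbols passed an adjusted p of 0.05. Centring moves every gene to the left by the same amount, and 13 genes from XRCC2 up to RAD50 stay filled on the right in both.

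In none of the 4 treatment comparisons did 10 of the measured members pass: BARD1, BRIP1, XRCC2, MRE11, NBN, WRN, FANCE, FANCM, RMI1 and POLQ. Their changes ran from -0.52 to 0.48. The share of all genes that passed in none of the 4 is not given here, so this count has no background to be set against. FANCM, the DNA translocase of the Fanconi pathway, varied widely between replicates, at 4.17, 5.68 and 4.92 with QC6352 and 5.63, 5.49 and 5.18 with DMSO in Rh30, so the spread of single arrays covers its mean difference of -0.51.

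Other genes of the pathway, listed by name, gave 45 measured of 50. With QC6352 18 rose and 10 fell in Rh30 (median change 0.18), and 9 rose and 4 fell in Rh41 (median 0.04). Over all genes 19.9% rose and 16.5% fell in Rh30 (median 0.05), and 10.9% and 8.80% in Rh41 (median 0.02). RPA3, the smallest subunit of the single-strand binding protein RPA, fell in both lines, with changes of -2.79 ± 0.16 in Rh30 (adjusted p = 1.0e-10) and -2.16 ± 0.16 in Rh41 (adjusted p = 2.0e-08). PSMC3IP, a cofactor of meiotic strand exchange, rose by 1.79 and the Shu complex subunit ZSWIM7 fell by 1.78 in Rh30. With the KDM4B hairpin none rose and 14 fell (median -0.19), led by SFR1 (-1.36), TOPBP1 (-0.99) and USP1 (-0.99). Over all genes 5.26% rose and 6.31% fell with the hairpin (median 0.03). With the KDM4C siRNA none of the list passed. At an unadjusted p under 0.05 by limma there were 14, and no share of all genes at that cut is given here. Of 13 measured end joining genes, 2 rose and 5 fell with QC6352 in Rh30, led by the ligase cofactor XRCC4 (-1.45), and 1 rose and 4 fell with the KDM4B hairpin.

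Cell cycle genes were counted beside these, since many repair genes are expressed in S phase. Of 18 S phase genes, 6 rose and 4 fell with QC6352 in Rh30, 3 rose and 4 fell in Rh41, and 5 fell and none rose with the KDM4B hairpin. Cyclin E2 (CCNE2) rose by 1.26 with QC6352 in Rh30 and fell by 0.89 with the hairpin, and claspin (CLSPN) rose by 1.00 and fell by 0.94. Of 12 mitosis genes, 3 rose and 3 fell with QC6352 in Rh30, 3 fell in Rh41 and 4 fell with the hairpin, where TOP2A fell by 1.24. Over all genes 19.9% rose and 16.5% fell with QC6352 in Rh30, 10.9% and 8.80% in Rh41, and 5.26% and 6.31% with the hairpin. Whether these lists differ from all genes, and the part of cell cycle genes in the repair gene results, was not tested.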

How the data were processed

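RNA was extracted with RNeasy kits and labelled by the Whole Transcript Plus assay from 125 ng for 20 Affymetrix Clariom S arrays, per the labels' protocols. The authors deposited log2 signals for each probe set, from 2.22 to 14.22; the submitters' processing notes name GCOS, and how the signals were summarized and normalized is not given in the sources used here. A between-array offset that the authors left in would shift Rh41 against Rh30. Values were used as deposited.

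Of 24351 probe sets, 17709 carried 1 symbol and 6642 none; the highest-mean probe set per gene left 17687 genes, after 22 second probe sets were dropped. All 20 arrays entered 1 limma 3.58.1 fit (R 4.3.3, lmFit and eBayes) of 8 group means with 12 residual degrees of freedom, and the Benjamini-Hochberg adjusted p over all genes had to be under 0.05. Groups followed the titles, except for 1 array titled as a KDM4C shRNA whose source name and treatment give the siRNA. The number of arrays limits the precision. On simulated data of this size, 2-fold changes were recovered in 97% (QC6352 in Rh30), 96% (QC6352 in Rh41), 81% (KDM4B hairpin) and 82% (KDM4C siRNA) of genes. For 1.5-fold changes the shares were 55%, 58%, 45% and 29% in the same order. The simulations changed 200 genes per comparison and gave all arrays the same spread for a gene. In the data 6427 genes were called with QC6352 in Rh30 and 3479 in Rh41. The recovered shares are therefore not the sensitivity of the tests above.

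Members and lists were chosen with earlier results of these data known. Values per array are given for the up to 6 members with the largest called change per comparison (with fewer than 3 calls, the 3 with the smallest p), and fold changes for the other called members; other lists are named by their up to 3 leading called genes. Members not called, and FANCG and BRCA1 per array, were named after their values were seen. Alternatives covered normalization, filtering, variance moderation, weights, blocking, grouping and leaving out arrays. Replicate numbers are shared by the groups, but correlations of same-numbered arrays ran from -0.21 to 0.26, which did not show pairing across the comparisons. They were 0.06 to 0.26 for QC6352 and DMSO in Rh30 and -0.19 to -0.06 in Rh41. Differently numbered arrays gave -0.16 to 0.09 in Rh30 and -0.07 to 0.13 in Rh41.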

Additional observations from a re-analysis of the deposited data

Results flagged for a closer look

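The response to QC6352 differed between Rh41 and Rh30 for 13 repair genes, by the interaction term of the limma fit (Rh41 response minus Rh30 response, log2, adjusted p under 0.05). The genes with a positive difference fell further in Rh30, or fell there and were not called in Rh41, with the exception of FANCL: FANCC (1.24), RAD52 (1.07), RAD51B (0.90), CHEK2 (0.81), FANCF (0.76), RAD50 (0.73), EME1 (0.66) and BLM (0.59). FANCL, at 0.41, rose in Rh41 and was not called in Rh30. The negative differences were those of FANCG (-1.14), RAD51D (-0.57) and RAD54L (-0.47), which rose in Rh30 and were not called in Rh41, and of RMI1 (-0.45), which was called in neither line. FANCL (adjusted p = 0.0496) and RMI1 (adjusted p = 0.047) lay closest to the threshold.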

How the results depend on the processing

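Grouping by sample name changed the drug results in Rh30 most: 1 member passed for QC6352 in Rh30, 6 in Rh41, 3 for the difference between the lines and 5 for drug minus hairpin, where 0.503%, 8.69%, 4.31% and 3.47% of all genes did. Under that grouping the change with QC6352 in Rh30 turned positive for ATR (0.41), RAD50 (0.10), FANCC (0.16), FANCF (0.17), RAD51B (0.39), BLM (0.13), EME1 (0.24), RAD51C (0.10) and CHEK2 (0.59), and negative for FANCG (-0.020). The difference between lines turned negative for FANCL (-0.059), RAD50 (-0.94), FANCC (-0.97), FANCF (-0.62), RAD51B (-1.75), BLM (-0.12), EME1 (-0.58) and CHEK2 (-0.36). Drug minus hairpin turned positive for ATR (0.98), FANCC (0.0036), FANCF (0.11), RAD51B (0.45) and EME1 (0.61). In DMSO, RAD52 turned to -0.061 and XRCC3 to 0.16 by sample name, and quantile normalization turned RAD52 (-0.0093) and RAD51C (-0.011). By sample name, the QC6352 group of Rh30 holds the arrays used above as DMSO replicates 1 and 2 and KDM4C siRNA replicate 2. Its DMSO group holds both control siRNA arrays and KDM4C siRNA replicate 1. No array titled QC6352 thus enters that comparison. The Rh41 arrays have no conflicting labels, and the median change of the members there was 0.01 under both groupings. Which labels are right was not tested.

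For the KDM4B hairpin, 8 members passed without the dimmest 40% of probe sets, 9 with trended robust moderation and 7 without the 10 arrays of conflicting labels, where 23.3%, 14.3% and 14.3% of all genes tested did. Leaving out 1 array gave 18 to 21 members for QC6352 in Rh30, where 5767 to 6119 of all genes passed. In Rh41 it gave 8 to 11 members (2646 to 2776 genes). For the difference between lines the counts were 9 to 12 (2880 to 3399), and in DMSO 21 to 23 (9317 to 9684). Without 1 QC6352 or DMSO array, drug minus hairpin gave 15 to 16 members (3973 to 4283). With a replicate block the counts were 22 for QC6352 in Rh30 (6172 genes), 11 in Rh41 (3103), 3 for the hairpin (1620) and 0 for the siRNA (19). For the difference between lines, drug minus hairpin and DMSO they were 10 (3136), 15 (3960) and 25 (10186). The replicate numbers were not shown to pair the arrays. For the siRNA the correlation of -0.21 led to a crossed replicate block, added after seeing the data, with 0 members and 46 genes. Over all genes the siRNA calls were 81, against 438 with trended robust moderation, 338 without the dimmest probe sets, 9 with array weights and 0 by sample name. The counts of settings that follow leave out the grouping by sample name. Among named calls, PALB2 and FANCI in Rh41 held in 8 of 15 other settings each, and the line difference of FANCL in 8 of 20 and of RMI1 in 9 of 20. The line differences of RAD51B, RAD51D and RAD54L held in 12, 13 and 15 of 20. Signals near background, as of ATR, RAD51B and FANCM, limit how large a fall can be measured.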
